A study of Rattus norvegicus with 6 samples.

Results

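The 9 genes described here encode enzymes of the citric acid cycle and were taken by symbol from the deposited liver expression table: Cs, Idh2, Idh3a, Ogdh, Dlst, Suclg1, Fh1, Mdh1 and Mdh2. Each symbol stood on 1 row, so 9 of the 32930 listed genes were members, and all 9 were among the 18455 genes that passed the expression filter. Liver RNA of 6 animals was sequenced. By the labels, 3 were fed a high-fat diet with 0.5% CMC-Na as vehicle (HFD group) and 3 were fed this diet with HTG (HTG group). The labels give 12 weeks as the intervention. In the rat experiment of the study, the diet lasted 12 weeks and HTG, also given in 0.5% CMC-Na, was started some weeks into it. HTG is the Huazhuo Tiaozhi granule, a herbal formula, and the sample titles read HTG where the treatment label reads HCG. All 6 animals thus carried the diet, and a normal-diet group was not analysed here. The labels name rats, the methods of the study name C57BL/6 J mice for the RNA sequencing, and every gene row carries a mouse Ensembl identifier, so the values are those of mouse gene models and the species of the tissue is not settled. No genotype, age or pooling is given for these libraries in the sources used here.

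The citric acid cycle runs in the mitochondrial matrix, where it oxidises the acetyl groups that come from pyruvate, fatty acids and amino acids and passes the electrons to the respiratory chain as NADH and as reduced flavin. In the liver its intermediates also leave the matrix, as citrate for fatty acid synthesis and as malate for glucose synthesis. Citrate synthase (Cs) starts the cycle by joining acetyl-CoA to oxaloacetate, and its activity is often used as a measure of mitochondrial content. Isocitrate is oxidised by an NAD-dependent enzyme, of which Idh3a encodes the catalytic subunit, and by the NADP-dependent enzyme of Idh2. Ogdh and Dlst encode the E1 and E2 parts of the 2-oxoglutarate dehydrogenase complex, and Suclg1 the alpha subunit shared by both succinyl-CoA ligases. Fh1 encodes fumarate hydratase, and Mdh2 the mitochondrial malate dehydrogenase that closes the cycle. Mdh1 encodes the cytosolic malate dehydrogenase, which works in the malate-aspartate shuttle.

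Transcripts of 8 of the 9 enzymes were lower in every HTG library than in every HFD library, and Idh3a was the exception. Across the 18455 genes tested, 15.5% were lower and 16.5% higher in this way without overlap. All 9 members had a fitted log2 fold change below 0, as had 48.4% of the genes tested. The fitted changes of the 8 genes ran from a 29.1% decrease for Mdh2 to a 42.7% decrease for Idh2. In edgeR's quasi-likelihood test, with p-values adjusted by Benjamini and Hochberg's method, 0 members had an adjusted p under 0.05, a threshold passed in this direction by 0.00542% of the genes tested. DESeq2 called 5 members there, and 7.55% of the 17350 genes to which it gave an adjusted p were called lower. At an unadjusted p under 0.05 in edgeR, 7 members were lower and 0 were higher, against 12.4% of all genes tested that were lower. Ogdh, Dlst and Mdh1 also had an adjusted p under 0.1 in edgeR, as did 5.43% of all genes tested in this direction. The median log2 fold change of the 9 members was -0.70, and that of all genes tested was 0.03. With a single library removed at a time, the number of members under an adjusted p of 0.1 was 0 without HFD library 1, 2 or 3 or without HTG library 2 or 3, and 5 without HTG library 1. Over the whole table, in the 5 settings that gave 0 members, between 0% and 1.1% of all genes were lower at this threshold, and without HTG library 1 it was 8.16%. With upper-quartile scaling, or with the mitochondrial chromosome left out of the scaling, 2 members were under 0.1, since Mdh1 came to an adjusted p of 0.1017 and 0.1016 in edgeR.

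The upstream sequences of the 3 genes with an adjusted p under 0.1, and of Mdh2 as the mitochondrial counterpart of Mdh1, are shown because these genes were lower together. RefSeq promoters of the rat build GRCr8, from 250 bases before to 50 bases after the gene start, matched 8 of the 9 members, with Fh1 under its rat symbol Fh. They are rat sequences, while the counts are on mouse gene models. Capitals mark 4 motifs searched on both strands. They are the GC box, spelled GGGCGG, and the CCAAT box, spelled by its name. Also in capitals are the ETS site CCGGAAGT and the cAMP response element TGACGTCA. The Ogdh window lies at chr14:85363781-85364080 on the plus strand, the Dlst window at chr6:110489456-110489755 on the plus strand, the Mdh1 window at chr14:99847178-99847477 on the minus strand and the Mdh2 window at chr12:26543792-26544091 on the minus strand.
Ogdh: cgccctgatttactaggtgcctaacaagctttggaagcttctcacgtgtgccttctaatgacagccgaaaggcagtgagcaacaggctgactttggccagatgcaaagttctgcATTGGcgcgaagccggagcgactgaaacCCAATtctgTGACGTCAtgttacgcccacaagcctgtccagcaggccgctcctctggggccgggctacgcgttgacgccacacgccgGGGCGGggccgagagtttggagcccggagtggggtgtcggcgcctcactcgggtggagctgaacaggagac
Dlst: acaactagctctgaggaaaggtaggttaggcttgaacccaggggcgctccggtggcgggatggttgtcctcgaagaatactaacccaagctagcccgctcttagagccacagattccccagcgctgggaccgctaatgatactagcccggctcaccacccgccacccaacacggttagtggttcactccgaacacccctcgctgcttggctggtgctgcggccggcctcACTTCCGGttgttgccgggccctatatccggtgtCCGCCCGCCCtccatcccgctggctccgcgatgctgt
Mdh1: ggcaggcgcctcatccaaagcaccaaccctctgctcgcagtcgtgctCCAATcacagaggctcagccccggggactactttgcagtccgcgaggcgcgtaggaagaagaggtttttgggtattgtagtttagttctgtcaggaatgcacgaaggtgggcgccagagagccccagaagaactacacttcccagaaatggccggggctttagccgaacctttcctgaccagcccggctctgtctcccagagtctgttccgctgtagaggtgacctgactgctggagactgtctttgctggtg
Mdh2: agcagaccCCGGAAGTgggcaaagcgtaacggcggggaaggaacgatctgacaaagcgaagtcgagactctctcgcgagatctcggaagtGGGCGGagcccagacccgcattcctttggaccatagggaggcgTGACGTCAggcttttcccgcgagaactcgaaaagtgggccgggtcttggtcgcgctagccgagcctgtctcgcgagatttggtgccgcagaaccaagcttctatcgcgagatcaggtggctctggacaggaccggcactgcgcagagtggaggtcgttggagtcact
The Ogdh window held 1 GC box, 2 CCAAT boxes and 1 cAMP response element, and that of Mdh2 held 1 GC box, 1 ETS site and 1 cAMP response element. In Dlst, 2 overlapping GC boxes and 1 ETS site stood close to the gene start, whereas Mdh1 had 1 CCAAT box and no GC box in this window. Of the 8 member promoters, 6 held a GC box and 6 a CCAAT box, against 33.1% and 37.5% of all 33469 promoters of this length. The cAMP response element was in 2 of 8 and in 1.83% of all promoters, and the ETS site in 2 of 8 and in 3.81%. The core site of NRF1, the oestrogen-related receptor site TCAAGGTCA and the TATA box TATAAA were in 0 of the 8 windows, and in 0.852%, 0.433% and 14.2% of all promoters. The promoters compared with were all those listed, not only those of genes expressed in liver. These matches are descriptions of letters, and no binding was measured here. Any link between them and the lower values was not tested.

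The 6 libraries held between 50648778 and 90563477 estimated counts, with the fewest in HTG library 3, and the member with the fewest counts was Idh3a in HTG library 3, at 1500. Among low counts, the value 4 occurred 6450 times, against 2549 times for 3 and 1757 for 5, and 8 occurred 3333 times, against 1521 for 7 and 1170 for 9, while 1 and 2 were also frequent, at 5104 and 4229 times. If about 4 counts stand for 1 fragment, which no source used here states, 1500 counts are about 375 fragments, with a relative counting error of 5.16%. Below, CPM are counts relative to the library total after TMM scaling and compare libraries for 1 gene. FPKM, which divide by the length of the gene model, are used to compare genes, so such comparisons depend on these lengths. Each edgeR p sets the group difference against the variation between 3 libraries per group, estimated with information from all genes tested. An exact two-sided permutation test of 3 libraries against 3 cannot give a p under 0.1. In bulk liver RNA, fewer cells of a type and less RNA per cell cannot be told apart. The hepatocyte marker Alb had 57850, 66090 and 74500 CPM in the HFD libraries and 53510, 54430 and 55200 CPM in the HTG libraries, without overlap. Of the other hepatocyte markers found, Cps1 was also lower without overlap (log2 fold change -1.62), while Ttr, Hnf4a and Asgr1 overlapped between the groups. The skeletal muscle markers were at or near 0.

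At the entry of the cycle, citrate synthase transcripts (Cs, ENSMUSG00000005683, chromosome 10, 128173603 to 128198348) had 90.4, 112 and 160 CPM in HFD libraries 1, 2 and 3 and 84.8, 75.7 and 84.7 CPM in HTG libraries 1, 2 and 3. The 3 HTG values lay close together and below the lowest HFD value, whereas the HFD values were spread widely, with library 3 the highest. The log2 fold change was -0.57 (SE 0.23, adjusted p = 0.178, edgeR's quasi-likelihood test), and it was -0.32 without HFD library 3. The related gene Csl had at most 3 counts in a library, and an antisense gene at the start of Cs had between 13 and 88 counts.

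Isocitrate oxidation was represented by 2 members that differed in size of change. Idh2 (ENSMUSG00000030541, chromosome 7, 79744594 to 79765140), the mitochondrial NADP-dependent enzyme, had 152, 197 and 163 CPM in the HFD libraries and 140, 83.4 and 70.1 CPM in the HTG libraries. HTG library 1 stood just under the lowest HFD library, and the other HTG libraries were far lower. Its log2 fold change of -0.80 was the largest decrease among the 9 members (SE 0.28, adjusted p = 0.125, edgeR's quasi-likelihood test). Without HTG library 1 the change was -1.19, with an adjusted p of 0.0454 from edgeR. Idh3a (ENSMUSG00000032279, chromosome 9, 54493618 to 54511945) had 29.0, 43.9 and 47.1 CPM in the HFD libraries and 36.6, 36.0 and 32.0 CPM in the HTG libraries. Here HFD library 1 was the lowest of all 6, so that the groups overlapped. The log2 fold change of Idh3a was -0.20, with a 95% interval from -0.67 to 0.28 (adjusted p = 0.593, edgeR's quasi-likelihood test). The interval thus includes decreases of the size fitted for Mdh2 and Cs. As a ratio within each library, the FPKM of Idh2 over that of Idh3a was 10.3, 8.80 and 6.79 in the 3 HFD libraries against 7.49, 4.54 and 4.29 in the 3 HTG libraries, with overlap (exact two-sided permutation test, p = 0.2, and 0.4 after adjustment over the 8 ratios compared).

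**Figure D1:**
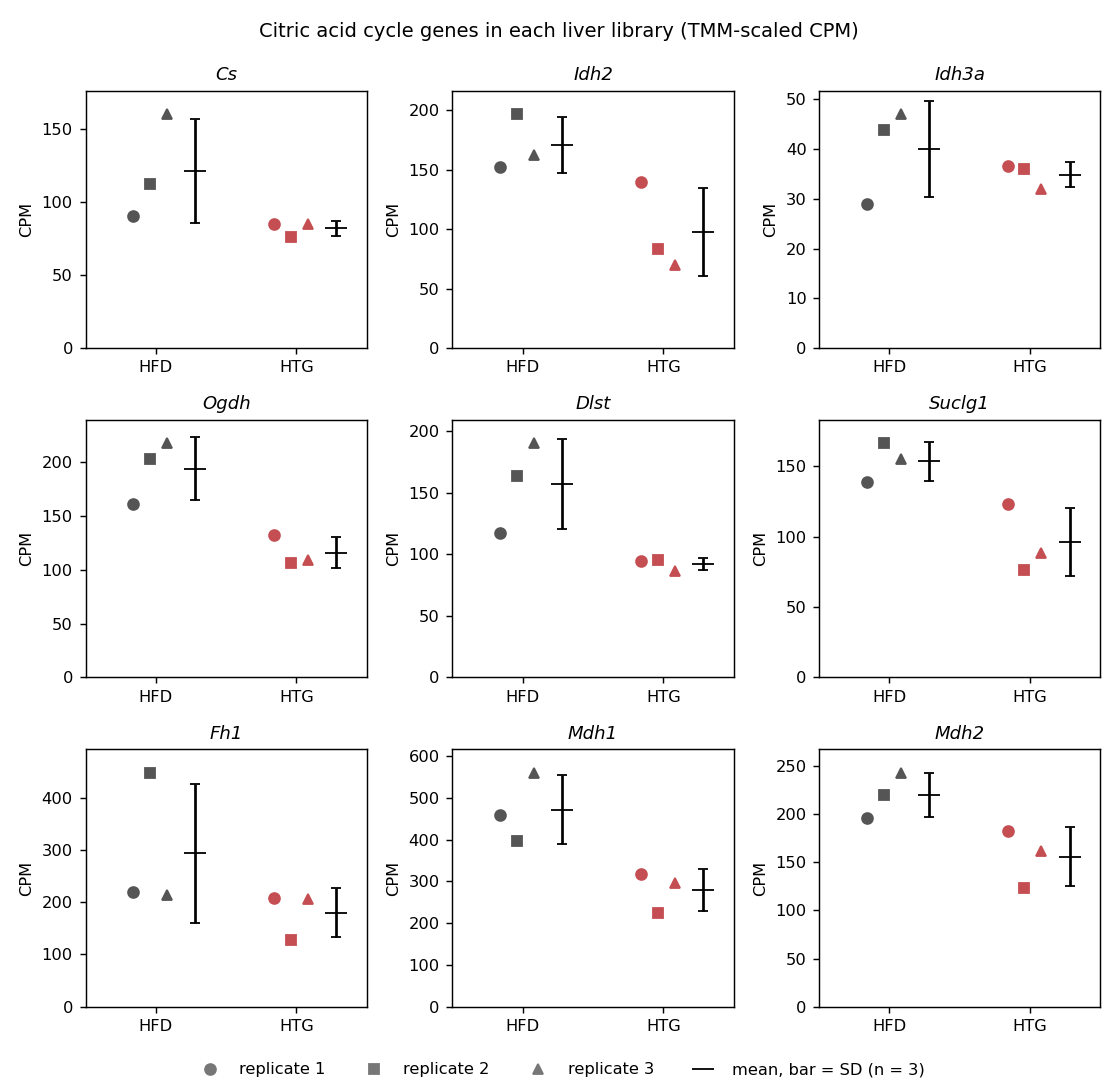
Each panel plots 1 gene, with CPM on the vertical axis from 0, the 3 HFD and 3 HTG libraries as points shaped by replicate number, and the group mean with its SD (n = 3) as a bar. Every HTG point lies below every HFD point in 8 panels, and in the Idh3a panel HFD replicate 1, at 29.0 CPM, is the lowest point.

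The transcripts of the 2-oxoglutarate dehydrogenase complex, which makes succinyl-CoA and NADH, were lower without overlap for both members. Ogdh (ENSMUSG00000020456, chromosome 11, 6241633 to 6306642) had 162, 203 and 218 CPM in the HFD libraries and 133, 106 and 109 CPM in the HTG libraries. All HTG values were below the HFD range. Its log2 fold change was -0.74 (SE 0.20), with the smallest adjusted p of the members, 0.0785, in edgeR's quasi-likelihood test. Dlst (ENSMUSG00000004789, chromosome 12, 85157607 to 85181619) had 117, 164 and 190 CPM in the HFD libraries and 94.6, 95.01 and 86.1 CPM in the HTG libraries. Its HTG values varied little, while HFD libraries 2 and 3 were well above HFD library 1. The log2 fold change of Dlst was -0.77 (SE 0.21, adjusted p = 0.0838, edgeR's quasi-likelihood test). In each library the E1 and E2 transcripts kept a similar ratio: the FPKM of Ogdh over Dlst was 2.20 ± 0.203 in the HFD group and 2.21 ± 0.248 in the HTG group (SD, n = 3 per group), a log2 difference of 0.01.

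Suclg1 (ENSMUSG00000052738, chromosome 6, 73225365 to 73253894) had 139, 166 and 155 CPM in the HFD libraries and 123.0, 76.5 and 88.1 CPM in the HTG libraries. The HFD values were tight, and HTG library 1 was nearer to them than to the other HTG libraries. Its log2 fold change was -0.68 (SE 0.22, adjusted p = 0.111, edgeR's quasi-likelihood test).

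Fh1 (ENSMUSG00000026526, chromosome 1, 175427940 to 175453201) had 219, 447 and 214 CPM in the HFD libraries and 208, 127 and 206 CPM in the HTG libraries. HFD library 2 stood far above the other HFD libraries, and HTG libraries 1 and 3 lay just below the HFD range. The log2 fold change was -0.70 (SE 0.34, adjusted p = 0.247, edgeR's quasi-likelihood test), and without HFD library 2 it was -0.27. Fh1 overlaps Kmo, a gene of tryptophan breakdown on the opposite strand, over 5255 bases, and no source used here says if strand was used in counting. Kmo had 247, 234 and 262 CPM in the HFD libraries and 210, 189 and 264 CPM in the HTG libraries. How reads of the shared bases were assigned was not tested.

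The malate dehydrogenases of both compartments were lower. Mdh1 (ENSMUSG00000020321, chromosome 11, 21506692 to 21522193) had 460, 396 and 559 CPM in the HFD libraries and 318, 223 and 296 CPM in the HTG libraries. Of all members it had the widest gap between the groups in CPM, from 396 to 318. Its log2 fold change was -0.76 (SE 0.23, adjusted p = 0.0984, edgeR's quasi-likelihood test). Mdh2 (ENSMUSG00000019179, chromosome 5, 135807334 to 135819245) had 196, 220 and 243 CPM in the HFD libraries and 183, 122.7 and 162 CPM in the HTG libraries. HTG library 1 was close to HFD library 1, and the log2 fold change was -0.50 (SE 0.21, adjusted p = 0.194, edgeR's quasi-likelihood test). The FPKM of Mdh1 over that of Mdh2 was 2.88 ± 0.403 in the HFD group and 2.40 ± 0.0649 in the HTG group (SD, n = 3 per group), and the groups overlapped (exact two-sided permutation test, p = 0.3, adjusted 0.457).

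Among themselves the members spanned a wide range of levels per gene model length. In the HFD group the order of mean FPKM was Mdh1 at 172 ± 37.2, Fh1 at 82.2 ± 32.05, Idh2 at 63.4 ± 4.97, Mdh2 at 59.6 ± 7.04, Ogdh at 34.3 ± 4.99, Suclg1 at 32.0 ± 1.65, Cs at 20.3 ± 6.35, Dlst at 15.85 ± 3.73 and Idh3a at 7.58 ± 1.76 (SD, n = 3). The ranges of Fh1 and Idh2, of Idh2 and Mdh2, of Ogdh and Suclg1, and of Cs and Dlst overlapped, while Mdh1 was above Fh1, Mdh2 above Ogdh, Suclg1 above Cs and Dlst above Idh3a in every library. In the HTG group Mdh2, at 40.7 ± 6.603 FPKM, stood before Idh2, at 35.5 ± 13.6 (SD, n = 3), with overlapping ranges, and the order was otherwise the same. Cs, at 13.2 ± 0.470, was then above Dlst, at 9.03 ± 1.118, in every HTG library (SD, n = 3). Summed over the 9 genes, the FPKM came to 446, 485 and 531 in the HFD libraries and to 344, 257 and 273 in the HTG libraries. Mdh1 alone made up between 27.7% and 39.3% of this sum.

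**Figure D2:**
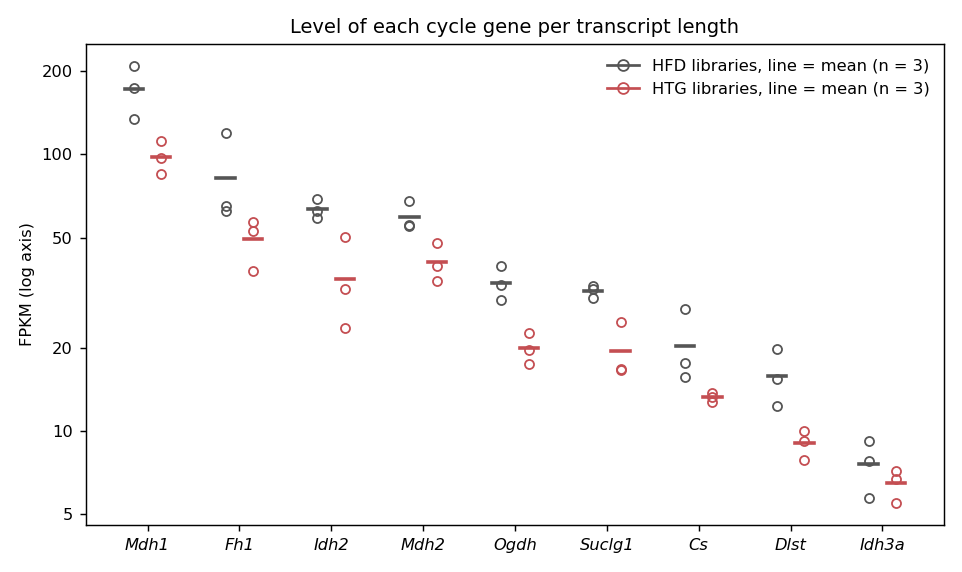
Open points give the FPKM of each gene in the 3 HFD and 3 HTG libraries on a logarithmic axis, and short lines give the group means. Genes stand in the order of the HFD means, from 172 for Mdh1 to 7.58 for Idh3a, and the HTG means follow nearly the same order at lower levels.

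The extremes fell in few libraries. HFD library 3 had the highest CPM in 6 of the 9 members and HFD library 2 in the other 3, namely Idh2, Suclg1 and Fh1. HTG library 2 had the lowest CPM in 6 members, HTG library 3 in Idh2 and Dlst, and HFD library 1 in Idh3a. With any 1 of the 6 libraries left out, the fitted change of each of the 9 members stayed below 0, and the median over members lay between -0.86 and -0.54. For the 8 members without overlap, leaving out a library could hardly change that sign. The correlation of a member's log2 CPM with the mean profile of all 9, a description over 6 libraries that share the group difference, ran from 0.639 for Idh3a and 0.753 for Fh1 to 0.991 for Ogdh. By the same measure, the non-member genes most like the mean profile, among 2973 genes whose mean level was 10 FPKM or more, were Eif3c, Mttp, Tmprss6, Slc25a13 and Pex5, with Pearson's r between 0.995 and 0.997.

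**Figure D3:**
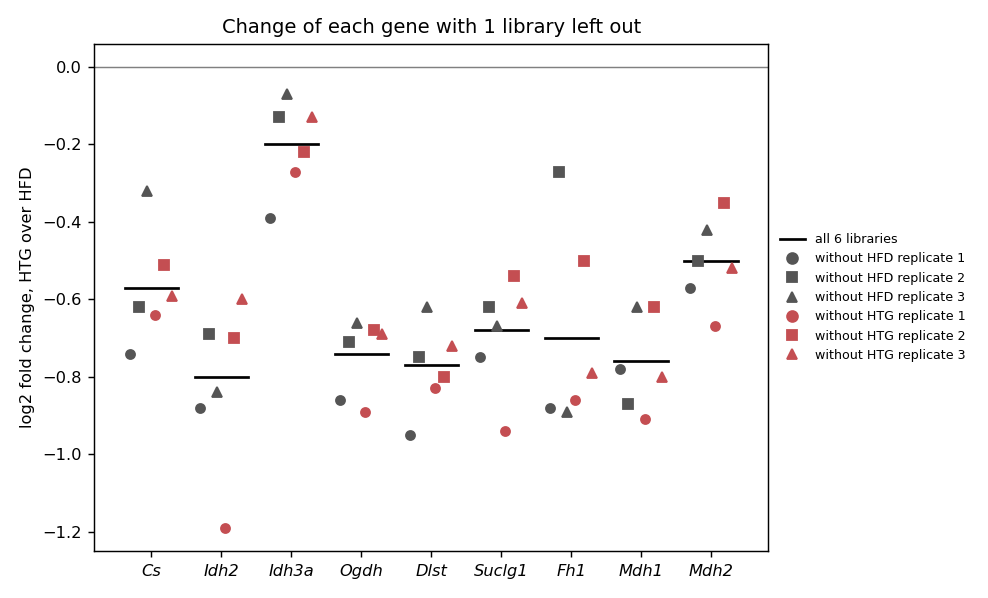
For each gene, points give the log2 fold change of HTG over HFD with 1 library left out, and the black line gives the value with all 6. All points lie below 0, and the shifts include Fh1 without HFD replicate 2 (-0.27), Idh2 without HTG replicate 1 (-1.19), Suclg1 without HTG replicate 1 (-0.94) and Cs without HFD replicate 3 (-0.32).

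A further 9 subunits of cycle enzymes were listed, and 7 of them were lower in every HTG library than in every HFD library, against 15.5% of all genes tested. Dld (the E3 of the 2-oxoglutarate dehydrogenase complex), Sucla2, Sdha and Sdhd were lower at an adjusted p under 0.1 in edgeR, 4 of the 9 against 5.43% of all genes, and 0 had an adjusted p under 0.05. The third part of the 2-oxoglutarate dehydrogenase complex was thus lower together with Ogdh and Dlst, with a log2 fold change of -0.84 for Dld (SE 0.20, adjusted p = 0.0656, edgeR's quasi-likelihood test). Of the partners of Suclg1, the ADP-forming beta subunit Sucla2 went from 95.5 ± 13.5 to 43.6 ± 11.2 CPM and the GDP-forming Suclg2 from 214 ± 14.8 to 165 ± 26.3 CPM (SD, n = 3 per group). Their log2 fold changes were -1.13 (SE 0.23) and -0.37 (SE 0.19), with adjusted p-values of 0.0582 and 0.278 from edgeR.

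Succinate dehydrogenase, which feeds fumarate to the enzyme of Fh1, showed the widest contrast within 1 complex. Sdha, the flavoprotein, went from 327 ± 69.2 to 126 ± 38.4 CPM, and Sdhd, a membrane anchor, from 178 ± 30.7 to 62.8 ± 20.2 CPM (SD, n = 3 per group). These were the largest decreases among the 18 cycle genes described, with log2 fold changes of -1.38 (SE 0.27) for Sdha and -1.50 (SE 0.27) for Sdhd. Sdhb, the iron-sulphur subunit, had 160 ± 18.0 and 151 ± 18.2 CPM and overlapped between groups (log2 fold change -0.09, 95% interval from -0.52 to 0.34). Sdhc, the other anchor, had a log2 fold change of -0.36 (SE 0.18, adjusted p = 0.243, edgeR's quasi-likelihood test). The FPKM of Sdha over Sdhb was 0.889, 1.18 and 1.25 in the 3 HFD libraries against 0.562, 0.323 and 0.479 in the HTG libraries, without overlap. The same held for Sdhd over Sdhc, from 3.01 ± 0.544 to 1.34 ± 0.273, and for Sucla2 over Suclg2, from 0.517 ± 0.0718 to 0.302 ± 0.0303 (SD, n = 3 per group). For each of these 3 ratios the exact permutation test, two-sided, gave p = 0.1, the smallest possible value, and p = 0.267 after adjustment over the 8 ratios compared, which were chosen after the values were seen. In the NAD-dependent isocitrate dehydrogenase, Idh3b was at 134 ± 8.38 and 105 ± 7.07 CPM and Idh3g at 52.7 ± 2.59 and 56.2 ± 6.82 CPM in the HFD and HTG groups (SD, n = 3 per group). Their log2 fold changes were -0.36 (SE 0.17) and 0.09 (SE 0.16), and Idh3g overlapped between the groups as Idh3a did.

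**Figure D4:**
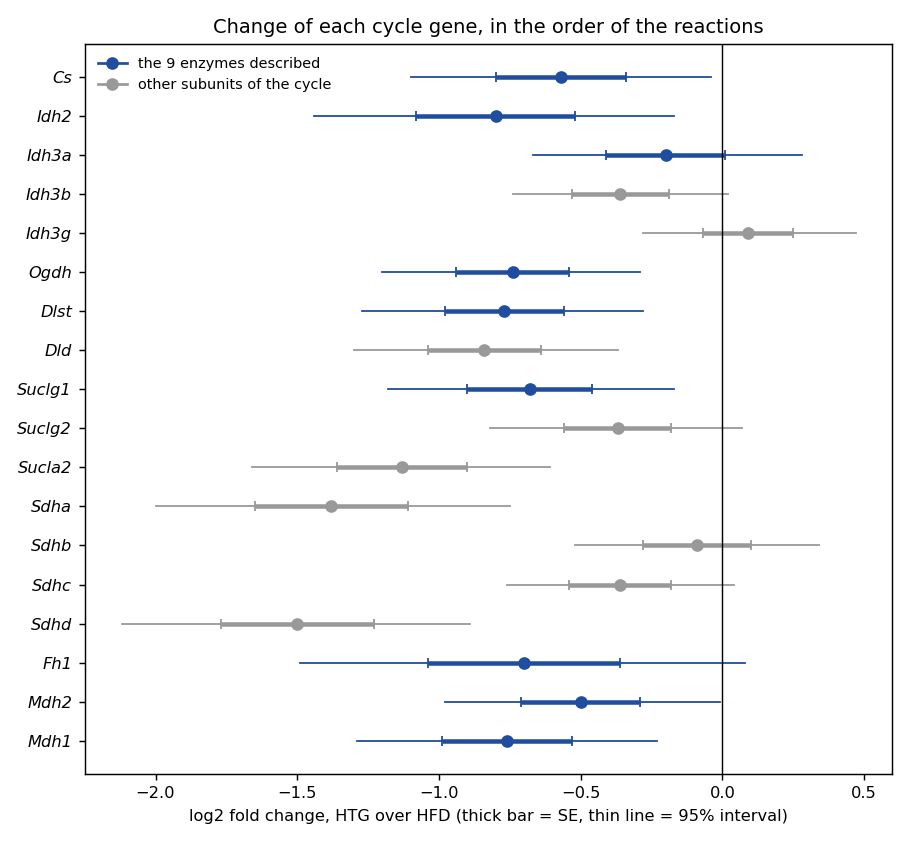
Points give the log2 fold change of HTG over HFD for 18 cycle genes in reaction order, with the SE as a thick bar and the 95% interval as a thin line, the 9 members in blue and the other 9 subunits in grey. Sdhd (-1.50) and Sdha (-1.38) lie farthest left, and Idh3a (-0.20), Sdhb (-0.09) and Idh3g (0.09) lie nearest 0.

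**Figure D5:**
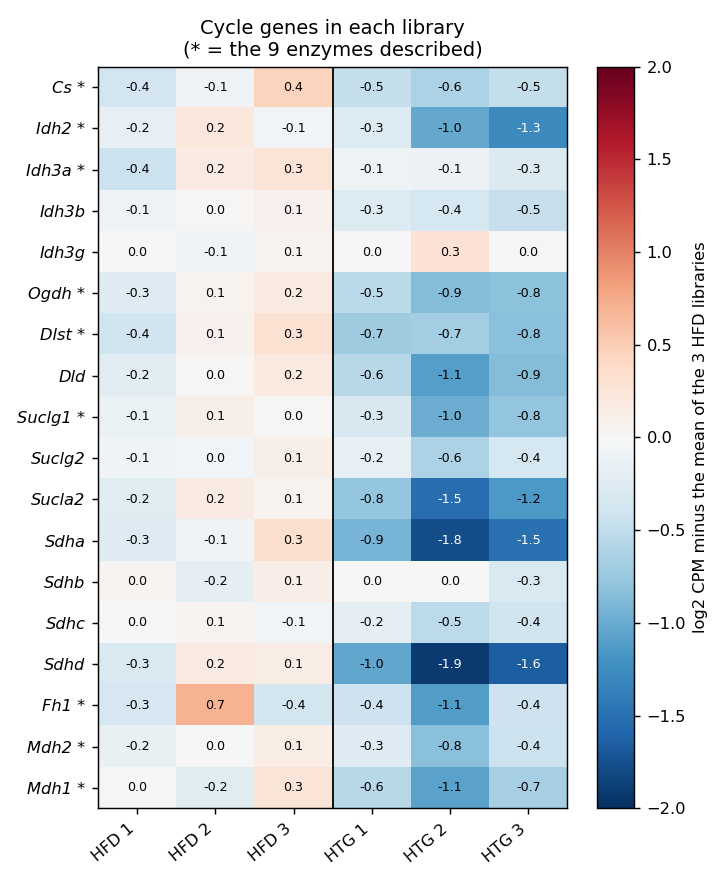
Colour and number give the log2 CPM of the 18 cycle genes in each library, relative to the mean of the 3 HFD libraries. HTG libraries 2 and 3 are lower than HTG library 1 in most genes, and Fh1 stands 0.70 above the HFD mean in HFD library 2.

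Around the cycle, 43 genes in other lists brought the number of further genes to 52, all of which were tested. Over the 52, 25 were lower and 1 was higher at an unadjusted p under 0.05 in edgeR, 14 were lower and 0 higher at an adjusted p under 0.1, and 0 passed an adjusted p of 0.05, where DESeq2 called 18 lower, against 7.55% of its genes. The share of all genes tested in edgeR at an unadjusted p under 0.05 and an adjusted p under 0.1 was 12.4% lower and 12.3% higher, then 5.43% lower and 5.41% higher. The pyruvate dehydrogenase complex, which supplies the acetyl-CoA used by Cs, was part of the list on carbon entry, in which 9 of 14 genes were lower at an unadjusted p under 0.05. Its subunits Pdha1 (-0.67), Pdhb (-0.78), Dlat (-0.87) and Pdhx (-0.89) were lower, with these log2 fold changes, as was Pdpr (-1.26), which regulates its phosphatase. Pdpr was at a low level, with a mean of 0.91 FPKM in the HFD group and 0.37 FPKM in the HTG group. Pdk1, an inhibiting kinase, had 47.5, 43.8 and 116.9 CPM in the HFD libraries and between 30.0 and 36.5 CPM in the HTG libraries, and its log2 fold change of -1.07 became -0.47 without HFD library 3. All 5 carriers of cycle intermediates were lower without overlap, as were 15.5% of all genes tested, and all 5 had an unadjusted p under 0.05 in edgeR. They were the citrate carrier Slc25a1 (-0.69), the dicarboxylate carrier Slc25a10 (-0.50), the oxoglutarate carrier Slc25a11 (-0.61) and the aspartate-glutamate carriers Slc25a12 (-0.68) and Slc25a13 (-0.75). Slc25a11, Slc25a12 and Slc25a13 take part with the enzyme of Mdh1 in the malate-aspartate shuttle.

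The aminotransferases of that shuttle were lower too, Got1 with a log2 fold change of -1.53 (SE 0.45) and Got2 with -0.56 (SE 0.24). Got1 had 206, 497 and 201 CPM in the HFD libraries and 152, 59.4 and 101 CPM in the HTG libraries, and so was highest in HFD library 2, as Fh1 was. Without that library the log2 fold change of Got1 was -0.97. The list on exit from and refilling of the cycle held 10 genes, of which 6 were lower at an unadjusted p under 0.05 in edgeR, against 12.4% of all genes tested. They included Glud1 (-0.53) and Gls2 (-0.46), which bring glutamate and glutamine carbon in. Acly, which cleaves exported citrate, had 60.9, 61.9 and 1023 CPM in the HFD libraries and 42.15, 39.8 and 91.7 CPM in the HTG libraries. HFD library 3 alone set its mean apart, with a log2 fold change of -2.72 that became -0.09 without it. HFD library 3 also had the highest value of Me1, a cytosolic malic enzyme, at 222 CPM against 45.04 and 123.2 in HFD libraries 1 and 2 and between 23.0 and 33.2 in the HTG libraries. HFD library 3 is the one in which Cs, Idh3a, Ogdh, Dlst, Mdh1 and Mdh2 were highest. Without it, their log2 fold changes were -0.32 for Cs, -0.07 for Idh3a, -0.66 for Ogdh, -0.62 for Dlst, -0.62 for Mdh1 and -0.42 for Mdh2. Aco1, listed as a cytosolic counterpart, had a log2 fold change of -0.71 (SE 0.24), and -0.46 without HFD library 3. Of the 8 genes for assembly factors and lipoate attachment, 0 were under an unadjusted p of 0.05 in either direction, against 12.4% of all genes lower and 12.3% higher. Their median log2 fold change was 0.15. Dhtkd1, which encodes the E1 of a related dehydrogenase of lysine breakdown, was the gene that was higher, from 53.4 ± 10.4 to 86.7 ± 26.3 CPM (SD, n = 3 in each). It had a log2 fold change of 0.70 (SE 0.25, adjusted p = 0.137, edgeR's quasi-likelihood test), and 0.42 without HTG library 2.

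Other values were also compared between the groups. The 13 mitochondrially encoded mRNAs were higher in every HTG library than in every HFD library, at 6.31%, 4.82% and 5.18% of all counts in the HFD libraries (1 to 3) against 9.12%, 14.9% and 12.98% in the HTG libraries (1 to 3). HTG library 1, with the lowest share of the HTG group, was also the HTG library with the highest CPM of 8 members. With the mitochondrial chromosome left out of the scaling, the log2 fold changes of the 9 members were the same to 2 decimals, although Mdh1 passed to an adjusted p above 0.1 in edgeR. Summed Kupffer cell markers were at 516 to 982 CPM in the HFD libraries and 367 to 656 CPM in the HTG libraries. Of these, 2 of 5 genes were lower at an unadjusted p under 0.05 in edgeR. The summed hepatocyte markers were at 65930 to 84500 CPM in the HFD libraries and 60320 to 61980 CPM in the HTG libraries, with 1 of 5 lower. Most of that sum was Alb, and Ttr, Hnf4a and Asgr1 overlapped between the groups. At an unadjusted p under 0.05 in edgeR, 12.4% of all genes tested were lower and 12.3% higher. The leukocyte, sinusoidal endothelial, stellate cell, cholangiocyte and red cell lists, of 4 genes each, had 0, 0, 1, 1 and 1 genes lower and 0, 0, 0, 1 and 0 genes higher at that threshold. The part of these differences in the members' values was not tested.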

How the data were processed

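Liver RNA of 3 HFD and 3 HTG animals was analysed, and libraries were grouped by their sample titles. The deposited table held, per gene and library, estimated counts rounded to whole numbers by the authors and not normalised, and FPKM values, which the authors divided by gene model length and library size. The submitters' processing notes list HISAT2, StringTie and SAMtools and the rat build mRatBN7.2, whereas the rows are mouse Ensembl genes. The build of the coordinates, any filter and the use of strand are not given in the sources used here, so overlapping and near-identical genes are uncertain. A member's counts per FPKM and library total varied by at most 3.27% between libraries, so that both units hold the same measurement.

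Members were taken by symbol. The members and lists were chosen with earlier results of these data known. Counts were filtered (filterByExpr), scaled by TMM and tested with glmQLFit and glmQLFTest of edgeR 4.0.16 in R 4.3.3 in a model of group alone, with Benjamini-Hochberg adjustment over all genes tested. The standard error is the log2 fold change divided by the square root of F, and 95% intervals use the total degrees of freedom. Alternatives were DESeq2 1.42.0, other scalings and filters, a block on replicate number, removal of each library in turn, counts divided by 4, and limma 3.58.1 on log2(FPKM + 0.1) and log2(FPKM + 1) where the mean was 1 FPKM or more. The overlap of groups was recomputed under other scalings after the values were seen. Scripts were tested on simulated counts. All 9 members, the 9 further cycle subunits and, in the other lists, the genes with an unadjusted p under 0.05 (at most the 6 with the smallest p) are named, with the 5 genes most like the members' mean profile. Csl, Kmo and the hepatocyte markers were named after their values were seen. Another gene of the cycle list is not reported here.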

Additional observations from a re-analysis of the deposited data

How the results depend on the processing

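All 153 refitted changes of the 9 members under 17 alternatives stayed below 0. The alternatives refit the same 6 libraries or part of them, so for the 8 members without overlap this sign could hardly change. Of the 153, 145 kept an adjusted p above 0.05, as in the main fit, and 8 fell below it. At that threshold 0 members were called in edgeR, 5 with DESeq2 and 1 with limma on log2(FPKM + 0.1) or log2(FPKM + 1), and between 0 and 1 when 1 library was left out. Under an adjusted p of 0.1 there were 3 members in edgeR, 5 with DESeq2 and with limma on FPKM, 2 with upper-quartile scaling and with the mitochondrial chromosome left out of the scaling, 0 with no filter on low counts or on FPKM, and between 0 and 5 with 1 library left out. The share of all genes lower at this threshold was 5.43% in edgeR, 10.6% with DESeq2 and 13.4% with limma on filtered FPKM. It was 5.2% with upper-quartile scaling, 5.33% without the mitochondrial chromosome in the scaling, and 2.23% and 1.1% with no filter on counts and on FPKM. With 1 library left out it was between 0% and 8.16%. The 7 members lower at an unadjusted p under 0.05 became between 3 and 6 with 1 library left out, 3 without HTG library 2 or 3 and 4 without HFD library 2. The 8 members without overlap were 8 under the other scalings and on FPKM, and 8 or 9 without 1 library. Leaving out a library cannot make separate groups overlap, so that count could only stay or rise and does not measure stability. The median over members stayed between -0.86 and -0.54. The 52 further genes, with 0 called at an adjusted p under 0.05, had 18 called with DESeq2, 4 with at least 10 counts in every library, with counts divided by 4 and with limma on filtered FPKM, 1 with no filter on low counts, and between 0 and 5 with 1 library left out. Over the whole table the 2 genes called became 2401 with DESeq2, 684 with at least 10 counts in every library, 822 with counts divided by 4, 878 and 884 with limma on log2(FPKM + 0.1) and log2(FPKM + 1), 162 and 0 with no filter on counts and on FPKM, and between 0 and 653 with 1 library left out. The 2001 genes under an adjusted p of 0.1 became 3444 with DESeq2, 1303 and 530 with no filter on counts and on FPKM, and between 0 and 2578 with 1 library left out. The cause of these shifts was not tested.

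Deviations of same-numbered libraries from their group means correlated at -0.0779, -0.0731 and 0.101 over genes, for numbers 1, 2 and 3. HFD libraries 1 and 2 and HTG libraries 1 and 2 each correlated best with another number, and HFD library 3 and HTG library 3 with each other. The deviations within each group of 3 sum to 0, so these values cannot decide whether the libraries were paired. With the replicate block, the genes called were 0 at an adjusted p under 0.05 and 0 under 0.1, members included, and all 9 members had fitted changes below 0.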
